A study of Mus musculus with 2 samples.

Results

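The genes described are 8 genes of the oculomotor and red nucleus neurons of the ventral midbrain: the homeodomain transcription factors Isl1, Isl2, Phox2a, Nkx6-1 and Nkx6-2, and the acetylcholine genes Chat, Slc18a3 and Slc5a7. They were picked by symbol from the 55536 annotated genes of the GENCODE M21 gene tables, and all 8 were found, each at 1 identifier. Polyadenylated RNA had been sequenced from the midbrain of healthy B6NCrl mouse embryos at 12.5 days of gestation, with no treatment and no altered allele named in the labels. There was 1 group of 2 biological replicates, both of pooled male and female embryos, with 120 embryos in replicate 1 and 88 in replicate 2. Libraries started from 10 ng of RNA, with oligo-dT priming, tagmentation and added ERCC spike-ins. Pooling means that no value belongs to a single embryo, and a whole midbrain mixes the motor nuclei with many other cells. Total expected counts, the estimated numbers of reads per gene, were 30274342 in replicate 1 and 38421860 in replicate 2.

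The oculomotor and trochlear nuclei hold the cholinergic motor neurons that move the eye, and the neighbouring red nucleus sends glutamatergic axons to the spinal cord. Nkx6-1 and Nkx6-2 act in ventral progenitors as repressors, and Nkx6-1 also stays on in red nucleus neurons. Phox2a is required for the oculomotor and trochlear nuclei to form, and Isl1 and Isl2 are LIM-homeodomain factors that motor neurons switch on as they leave the cell cycle. Chat makes acetylcholine, Slc18a3 (VAChT) loads it into synaptic vesicles, and Slc5a7 (CHT1) takes choline back up at the terminal.

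Transcripts of 5 of the 8 genes reached 1 TPM (a level per transcript length, scaled to the library's total) in both libraries, the limit of detection used here. These were Isl1, Nkx6-2, Nkx6-1, Isl2 and Slc5a7. The same limit was passed by 59.4% of protein-coding genes and by 28.1% of all annotated genes. Isl1 and Nkx6-2 stood well above the rest, Isl2 and Nkx6-1 lay near 5 TPM, and the 3 acetylcholine genes and Phox2a lay at or under 2.01 TPM in each library. The levels of the 8 genes summed to 53.9 TPM in both libraries, although Isl1 and Nkx6-2 moved in opposite directions between them. By mean level, Isl1 at 23.0 TPM stood just above the median of detected protein-coding genes, 22.2 TPM, and the other 7 stood under it.

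**Figure D1:**
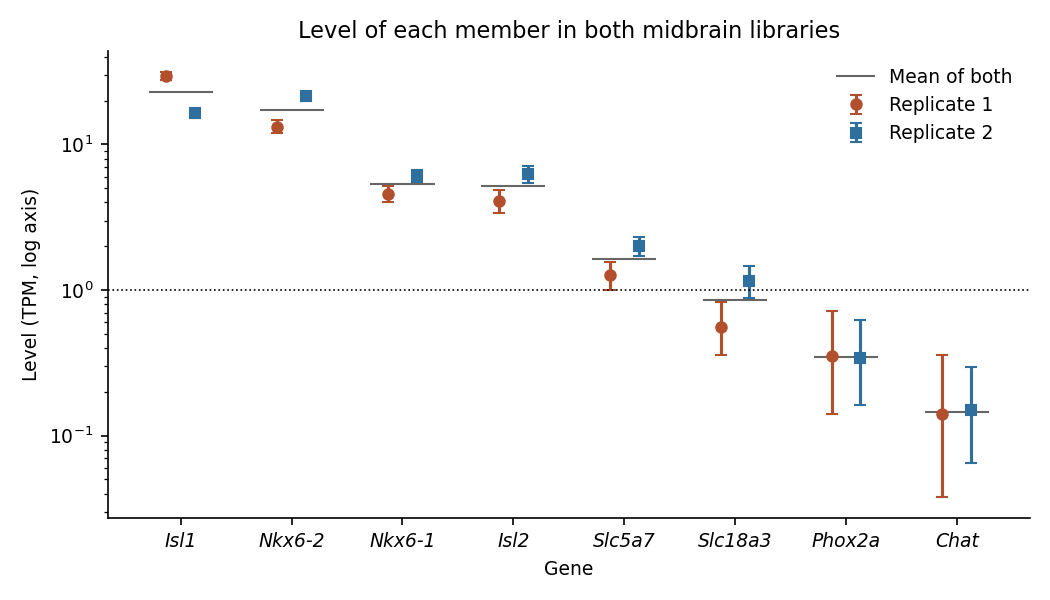
Level of each of the 8 genes in the 2 libraries, in TPM on a log axis, with the exact 95% Poisson interval of the counts as bars. Isl1 was highest in replicate 1 at 29.7 TPM, Nkx6-2 was highest in replicate 2 at 21.5 TPM, and Phox2a and Chat lay under 1 TPM in both.

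Isl1 (ENSMUSG00000042258.13, mm10 chr13:116298281-116309689, minus strand) had 29.7 TPM from 1102 counts in replicate 1 and 16.4 TPM from 816 counts in replicate 2. The 2 values averaged 23.0 ± 9.39 TPM (SD, n = 2), at percentile 70.9 of protein-coding genes. The counting intervals of the 2 libraries, 28.0 to 31.5 TPM in replicate 1 and 15.3 to 17.6 TPM in replicate 2, did not overlap. After TMM scaling the log2 ratio of replicate 1 over replicate 2 was 0.80, with an exact binomial 95% interval of 0.66 to 0.93, which is a 1.74-fold difference. Isl1 was the only one of the 8 genes that was higher in replicate 1 beyond counting error, a state that 15.5% of the 19885 genes compared shared. Among genes with at least 50 counts, 2.21% had a larger ratio in either direction. In whole tissue, fewer cells of a type and less RNA per cell cannot be told apart, here and for every ratio that follows.

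Isl2 (ENSMUSG00000032318.12, chr9:55538672-55546180, plus strand), the close paralog of Isl1, had 4.06 TPM from 122 counts in replicate 1 and 6.26 TPM from 211 counts in replicate 2. Its mean was 5.16 ± 1.56 TPM (SD, n = 2). Its log2 ratio was -0.43 (95% interval -0.76 to -0.10), so it was higher in replicate 2, as were 16.7% of all genes compared. The paralogs thus went opposite ways. Isl1 was 7.31 times Isl2 by TPM in replicate 1 and 2.62 times in replicate 2, and the ratio of their counts differed 2.33-fold between the libraries (95% counting interval 1.82 to 3.00).

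The start regions of the Isl pair are shown because the genes are paralogs whose levels went opposite ways. Each window runs from 250 bases before to 50 bases after the RefSeq start (GRCm38.p6). Capitals mark matches to CCAAT, TGACGTCA or TATAAA on either strand, motifs chosen with the sequences in view.
Isl1 promoter, chr13:116309639-116309938, minus strand: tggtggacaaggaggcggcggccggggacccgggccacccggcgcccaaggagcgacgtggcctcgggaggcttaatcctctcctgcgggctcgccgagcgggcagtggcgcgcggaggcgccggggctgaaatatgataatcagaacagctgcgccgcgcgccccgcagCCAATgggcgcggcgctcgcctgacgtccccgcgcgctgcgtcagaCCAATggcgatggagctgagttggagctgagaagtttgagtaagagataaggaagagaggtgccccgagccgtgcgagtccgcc
Isl2 promoter, chr9:55540899-55541198, plus strand: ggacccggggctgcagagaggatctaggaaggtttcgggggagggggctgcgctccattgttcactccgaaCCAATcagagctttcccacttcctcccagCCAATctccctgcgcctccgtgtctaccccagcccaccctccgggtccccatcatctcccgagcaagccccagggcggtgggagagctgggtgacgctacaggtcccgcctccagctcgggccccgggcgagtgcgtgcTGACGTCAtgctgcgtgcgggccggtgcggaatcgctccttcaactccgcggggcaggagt
Both windows held 2 CCAAT matches, at -80 and -34 from the start (first base of the motif) in Isl1 and at -179 and -150 in Isl2. Isl2 also held TGACGTCA at -11, just before its start, a motif found in 1.79% of 32851 RefSeq windows of this length. Their GC content was 69.0% in Isl1 and 67.3% in Isl2, against a median of 52.7% over all windows, with 37 and 23 CpG dinucleotides.

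Isl1 was read as 2 coding transcripts that differ inside exon 5. The full-length transcript ENSMUST00000036060.12 (2516 bases, 1047 coding) took 69.2% of the gene's TPM in replicate 1 and 76.5% in replicate 2. The shorter ENSMUST00000176044.2 (1198 bases, 978 coding), which lacks the first 69 bases of that exon and is known as the Isl1 beta form, took 21.7% and 18.4%. Of the 2 coding transcripts together, the short one was 23.9% in replicate 1 and 19.4% in replicate 2. In TPM, the long form had 20.5 in replicate 1 and 12.5 in replicate 2, and the short form 6.44 and 3.02, so both were higher in replicate 1. Retained-intron transcripts took the remaining 9.11% and 5.15%.

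Exon 5 of both paralogs is shown because it is where the Isl1 transcripts part. Capitals mark the 69 bases absent from the short Isl1 transcript, and the same positions in Isl2.
Isl1 exon 5, mm10 chr13:116301611-116301778, minus strand: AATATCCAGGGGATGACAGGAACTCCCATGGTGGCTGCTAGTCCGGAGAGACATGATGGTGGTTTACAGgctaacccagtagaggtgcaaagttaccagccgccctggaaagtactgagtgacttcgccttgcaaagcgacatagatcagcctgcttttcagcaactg
Isl2 exon 5, mm10 chr9:55544941-55545108, plus strand: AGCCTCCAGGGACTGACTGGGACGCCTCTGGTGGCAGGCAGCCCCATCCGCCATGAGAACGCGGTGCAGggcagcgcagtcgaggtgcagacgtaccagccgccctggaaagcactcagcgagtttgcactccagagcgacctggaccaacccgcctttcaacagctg
Both exons are 168 bases long, and aligned without gaps they were identical at 115 positions (68.5%). Identity was 59.4% in the capitals and 74.7% in the other 99 bases. No stretch of 50 bases in any Isl1 or Isl2 transcript occurred in another gene's transcripts.

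For Isl2 the coding transcripts took 78.4% of the gene's TPM in replicate 1 and 66.7% in replicate 2. A transcript annotated for nonsense-mediated decay, which lacks exon 3, accounted for 21.6% and 16.5%. A retained-intron transcript held no count in replicate 1 but 10.62 counts in replicate 2, 16.7% of the gene's TPM there. With 122 and 211 counts over 5 transcripts, these shares rest on few reads. An antisense gene over the Isl2 locus, Gm17226, had 0 and 0.06 TPM.

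**Figure D2:**
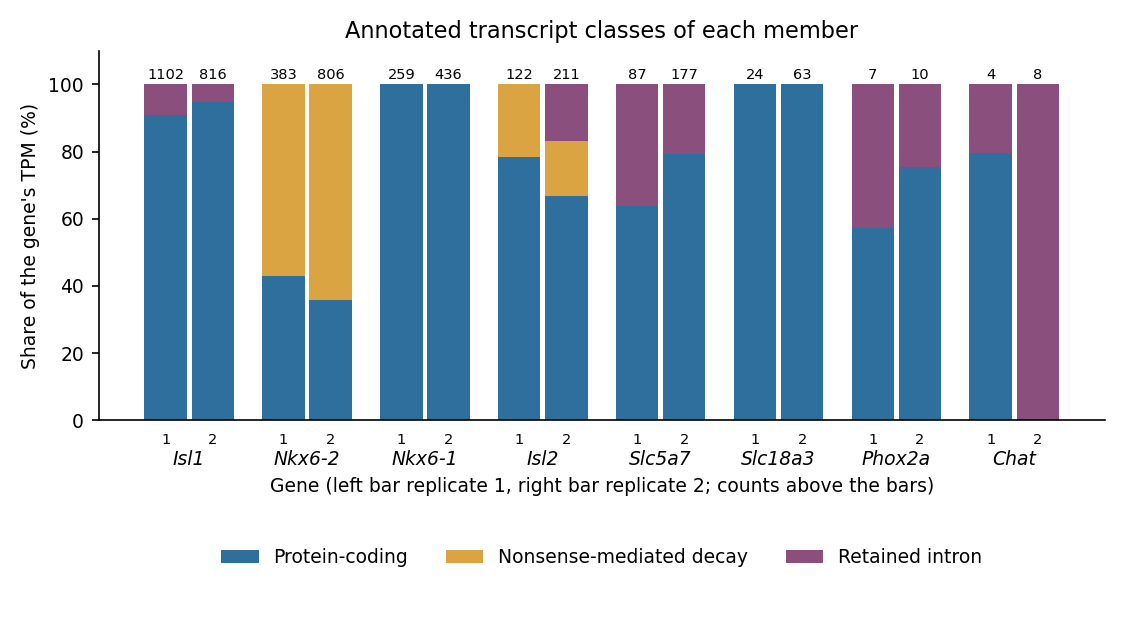
Share of each gene's TPM by annotated transcript class in each library, in percent. Nkx6-1 and Slc18a3 have 1 coding transcript each, more than 50% of Nkx6-2 was assigned to the transcript annotated for nonsense-mediated decay in both libraries, and Chat was assigned wholly to a retained-intron transcript in replicate 2.

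Nkx6-2 (ENSMUSG00000041309.17, chr7:139579376-139582797, minus strand) had 13.3 TPM from 382.61 expected counts in replicate 1 and 21.5 TPM from 805.62 in replicate 2. Its mean was 17.4 ± 5.82 TPM (SD, n = 2), and its log2 ratio was -0.71 (95% interval -0.89 to -0.53). It was therefore higher in replicate 2, the reverse of Isl1. Isl1 was 2.24 times Nkx6-2 by TPM in replicate 1 but 0.763 times in replicate 2, and the ratio of their counts differed 2.84-fold between the libraries (95% counting interval 2.44 to 3.32). At the gene level the order of the highest pair thus differed between the 2 pools. Over transcripts annotated as coding it did not: Isl1 had 27.0 TPM in replicate 1 and 15.6 TPM in replicate 2, above Nkx6-2 with 5.71 and 7.71 TPM.

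Nkx6-2 was divided between a pair of transcripts with the same coding length, 831 bases. The one annotated for nonsense-mediated decay, ENSMUST00000097974.8, took 56.9% in replicate 1 and 64.1% in replicate 2, and the one annotated as coding, ENSMUST00000106095.2, took 43.1% and 35.9%. The last exon of the first lies within Inpp5a, an inositol phosphatase gene on the opposite strand that overlaps Nkx6-2 by 277 bases. Of the 50-base stretches of Nkx6-2 transcripts, 199 of 1858 (10.7%) also occur in Inpp5a transcripts read on either strand. The strand setting of the counting was not given, so reads of the pair from that stretch cannot be told apart with certainty. Inpp5a had 17.2 TPM in replicate 1 and 19.4 TPM in replicate 2 with a log2 ratio of -0.11 (95% interval -0.24 to 0.02). Over the transcript annotated as coding alone, the log2 ratio of Nkx6-2 was -0.40. By the older M4 annotation the gene's level was 13.9 TPM in replicate 1 and 22.5 TPM in replicate 2.

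Nkx6-1 (ENSMUSG00000035187.10, chr5:101658139-101664996, minus strand) had 4.56 TPM from 259 counts in replicate 1 and 6.09 TPM from 436 counts in replicate 2. Its mean was 5.33 ± 1.08 TPM (SD, n = 2), and its log2 ratio of -0.39 (95% interval -0.62 to -0.16) also put it higher in replicate 2. By the M21 tables Nkx6-1 and Isl2 were neighbours in the order of levels and exchanged places. Isl2 was 0.890 times Nkx6-1 in replicate 1 and 1.03 times in replicate 2, and the change of their count ratio, 0.973-fold, had a counting interval of 0.735 to 1.29 that includes no change. Within the Nkx6 pair, Nkx6-2 was 2.91 times Nkx6-1 by TPM in replicate 1 and 3.53 times in replicate 2.

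The annotated extent of Nkx6-1 differs between the annotations. Its length is 3138 bases in M21 and 2100 bases in M4. The M21 model collected 97 more counts in replicate 1 and 112 more in replicate 2, from 162 and 324 counts under M4. The log2 ratio was -0.39 under M21 and -0.64 under M4. In replicate 1 the level was close under both, 4.56 TPM by M21 and 4.57 TPM by M4. In replicate 2 it was 6.09 TPM by M21, with a counting interval of 5.53 to 6.69 TPM, and 7.23 TPM by M4. Under M4 Nkx6-1 was above Isl2 in both libraries, since Isl2 had 4.27 TPM in replicate 1 and 6.59 TPM in replicate 2.

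Phox2a (ENSMUSG00000007946.11, chr7:101818313-101822726, plus strand), the defining factor of oculomotor neurons among the 8, had only 7 counts in replicate 1 and 10 in replicate 2. That gave 0.35 TPM in replicate 1 and 0.34 TPM in replicate 2 (mean 0.345 ± 0.00707, SD, n = 2), under the limit of detection in both. Its log2 ratio of -0.15 had an interval of -1.78 to 1.39, which includes a 2-fold difference in either direction, so none was detectable at this depth. Phox2a also overlaps Inppl1 on the opposite strand by 95 bases, and Inppl1 was far higher, at 27.8 TPM in replicate 1 and 30.0 TPM in replicate 2. Of the 50-base stretches in Phox2a transcripts, 46 of 1980 (2.32%) also occur in Inppl1.

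By the point estimate of TPM, the acetylcholine genes fell in the order Slc5a7, Slc18a3 and Chat in both libraries. Slc5a7 (ENSMUSG00000023945.7, chr17:54273590-54299034, minus strand) had 1.26 TPM from 87 counts in replicate 1 and 2.01 TPM from 177 counts in replicate 2 (mean 1.64 ± 0.530, SD, n = 2). Slc18a3 (ENSMUSG00000100241.1, chr14:32462438-32464850, minus strand) had 0.56 TPM from 24 counts in replicate 1 and 1.15 TPM from 63 counts in replicate 2 (mean 0.855 ± 0.417, SD, n = 2). Slc18a3 thus reached the limit of detection in replicate 2 only, and both genes were higher there. The log2 ratio was -0.66 for Slc5a7 (95% interval -1.05 to -0.28). For Slc18a3 it was -1.03 (95% interval -1.77 to -0.33), a 2.04-fold difference. Slc18a3 was the only one of the 7 genes compared with at least a 2-fold ratio and an interval that left out equality. Of all genes compared, 2.45% did so in that direction and 4.23% in either. Slc5a7 was 2.25 times Slc18a3 by TPM in replicate 1 and 1.75 times in replicate 2, a change within counting error.

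Chat (ENSMUSG00000021919.8, chr14:32408203-32465989, minus strand) had 4 counts in replicate 1 and 8 in replicate 2, or 0.14 TPM and 0.15 TPM (mean 0.145 ± 0.00707, SD, n = 2). Neither library reached the 10 counts needed for a ratio. The level is uncertain as well as low. The deposited posterior mean, an estimate that averages over the possible assignments of reads, was 1.41 TPM in replicate 1 and 1.17 TPM in replicate 2, above the point estimate in both. Its deposited credible bounds were 0.419 to 2.61 TPM in replicate 1 and 0.377 to 2.11 TPM in replicate 2. The largest shares of the posterior mean fell on coding transcripts of 220 and 249 bases, which held 0 expected counts in both libraries. They took 30.3% and 24.5% in replicate 1, and 29.2% and 23.6% in replicate 2. The full-length coding transcript took 3.2% in replicate 1 and 1.37% in replicate 2. By the posterior mean Chat stood above Slc18a3, which had 0.56 TPM in replicate 1 and 1.14 TPM in replicate 2. The order of the pair therefore turns on the estimate used. The 7 coding transcripts of Chat held 2.79 expected counts in replicate 1 and 0 in replicate 2, where all 8 counts went to a retained-intron transcript. The full-length coding transcript held 1.60 counts in replicate 1 and 0 in replicate 2. An antisense gene, Gm2990, overlaps Chat by 948 bases and had 3 counts in replicate 1 and 10 in replicate 2.

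Slc18a3 lies on the same strand inside the first intron of Chat, an arrangement known as the cholinergic gene locus, and the start regions of the pair are shown because a shared locus gave unequal counts. The windows and capitals are as for the Isl pair.
Chat promoter, chr14:32465860-32466159, minus strand: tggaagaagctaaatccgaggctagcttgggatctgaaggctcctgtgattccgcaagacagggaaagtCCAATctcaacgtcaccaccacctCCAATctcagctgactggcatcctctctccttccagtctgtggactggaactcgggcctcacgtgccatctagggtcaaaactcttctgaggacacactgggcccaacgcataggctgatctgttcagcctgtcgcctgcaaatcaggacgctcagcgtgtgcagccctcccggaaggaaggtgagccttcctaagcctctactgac
Slc18a3 promoter, chr14:32464801-32465100, minus strand: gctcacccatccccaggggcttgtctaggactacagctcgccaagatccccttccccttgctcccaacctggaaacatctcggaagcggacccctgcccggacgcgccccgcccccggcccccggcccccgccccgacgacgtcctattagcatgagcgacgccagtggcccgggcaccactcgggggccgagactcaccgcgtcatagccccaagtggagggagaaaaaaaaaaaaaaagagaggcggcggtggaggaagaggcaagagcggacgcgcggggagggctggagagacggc
Chat held 2 CCAAT matches, at -181 and -157, and Slc18a3 held none of the 3 motifs. Over the 8 genes, 5 windows held 2 CCAAT matches (Isl1, Isl2, Phox2a, Nkx6-2 and Chat) and 3 held none. Of all RefSeq windows, 37.4% held at least 1 and 11.7% at least 2. Because the motifs were chosen with these sequences in view, the counts cannot show that the motif is frequent in the gene set. TATAAA occurred only in Slc5a7 among the 8 genes and in 13.6% of all windows. GC content was 55.7% in Chat and 67.0% in Slc18a3, and it was lowest in Slc5a7, at 44.7% with 1 CpG. By the point estimate of TPM, Slc18a3 was 4.00 times Chat in replicate 1 and 7.67 times in replicate 2. By the posterior mean Chat was the higher of the pair in both libraries. The change of their count ratio, 0.764-fold, had a counting interval of 0.183 to 3.79.

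Retained introns also bore on Slc5a7. Its coding transcripts took 63.9% of the gene's TPM in replicate 1 and 79.2% in replicate 2, or 0.81 and 1.59 TPM. A retained-intron transcript took 36.1% and 20.8%. The full-length coding transcript had 0.55 TPM in replicate 1 and 1.13 TPM in replicate 2. The other coding transcript, of 309 bases, had 0.26 and 0.46 TPM from only 1 and 2.26 counts, so its part of the gene's level rests on few reads. Counted over coding transcripts only, Slc5a7 had a log2 ratio of -1.02. Under M4 it had 0.96 TPM in replicate 1 and 1.53 TPM in replicate 2 and so did not reach the limit of detection in both. Its call as detected therefore turns on the annotation used.

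Across the 7 genes compared, 1 was higher in replicate 1 beyond counting error, 5 were higher in replicate 2 and Phox2a was within it. Over all genes compared, 15.5% were higher in replicate 1 and 16.7% in replicate 2 by the same rule. Their median log2 ratio was -0.43, beside -0.01 over all genes compared, and their median absolute ratio was 0.66, beside 0.139 over all genes compared and 0.104 over those with at least 50 counts. Each pool is 1 library, so no test across pools exists and the intervals cover counting error only.

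**Figure D3:**
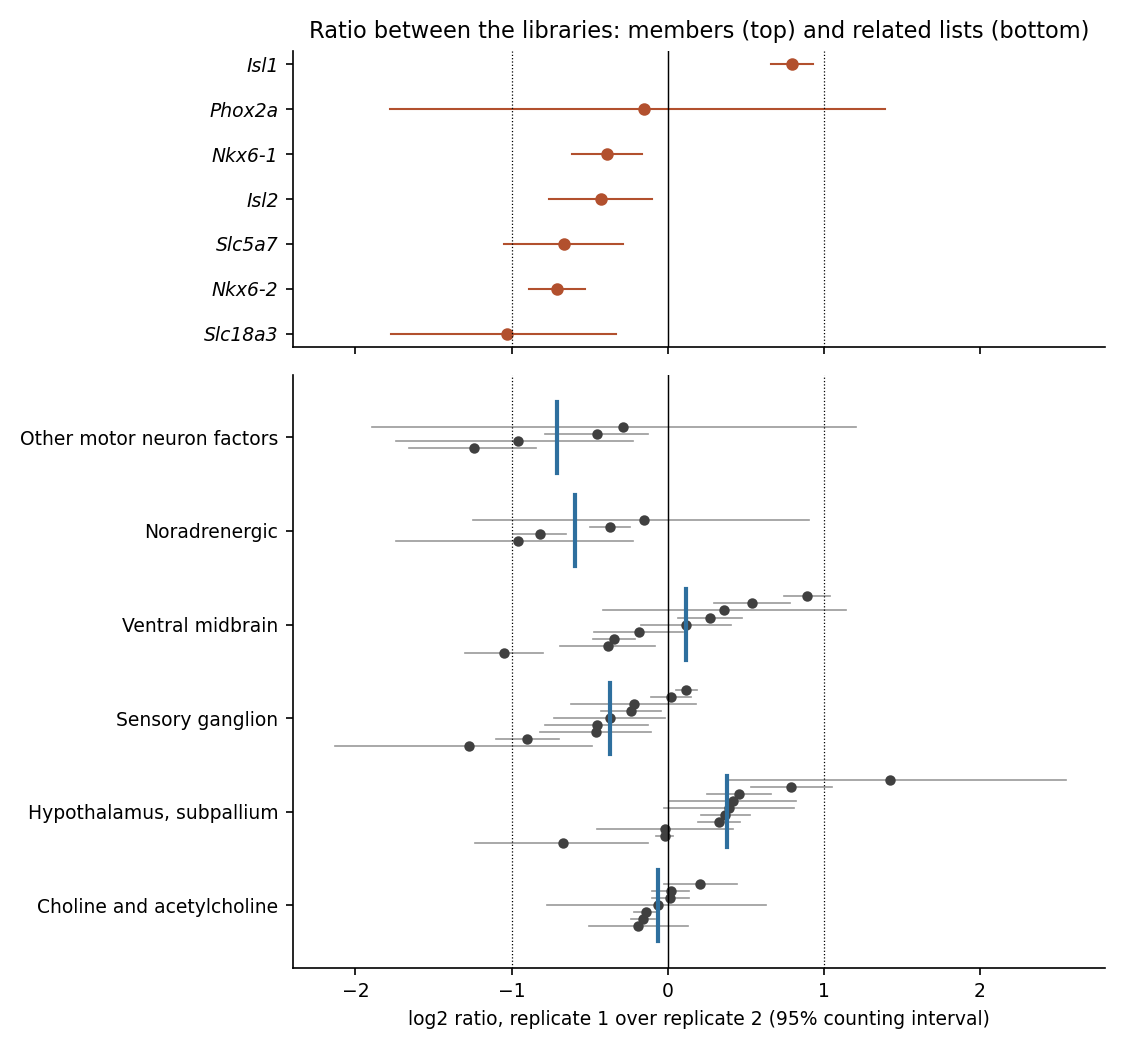
Log2 ratio of replicate 1 over replicate 2 for the 7 genes compared (top) and for genes of 6 related lists (bottom), with exact 95% counting intervals, list medians as blue bars and 2-fold limits dotted. Isl1 lies at 0.80 and the other 6 genes lie between -0.15 and -1.03.

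Genes that work beside the 8 were read from related lists. Pou4f1 (Brn3a), a marker of red nucleus neurons that sensory ganglia and tectum also express, had 86.0 TPM in replicate 1 and 78.1 TPM in replicate 2 (mean 82.1 ± 5.63, SD, n = 2), above any of the 8 genes. Its log2 ratio was 0.12 (95% interval 0.05 to 0.19) by TMM. Scaling by ERCC totals lowered every log2 ratio by 0.27, which put Pou4f1 higher in replicate 2 instead. Of the 6 other motor neuron factors, 2 were detected, with a median level of 0.383 TPM and summed levels of 6.04 TPM in replicate 1 and 10.2 TPM in replicate 2, and 3 of the 4 compared were higher in replicate 2 and none in replicate 1. Lhx4, a LIM-homeodomain factor of motor neurons, had 1.23 TPM in replicate 1 and 2.76 TPM in replicate 2, a log2 ratio of -1.24 that passed 2-fold. Prph, a neurofilament-class protein of peripherally projecting neurons, had 4.09 and 6.34 TPM and a ratio of -0.45. Tbx20 (0.16 and 0.11 TPM), Lhx3 (0.10 and 0.08 TPM) and Mnx1 (0.06 and 0 TPM), factors of cranial and spinal motor neurons, were under the limit of detection in both. Pou4f1 was thus high, but its level cannot be assigned to the red nucleus, since ganglia and tectum also express it. Phox2a and Chat, genes that define cholinergic oculomotor neurons, were each under 1 TPM in both libraries by the point estimate. By the posterior mean Phox2a was again under 1 TPM, at 0.47 and 0.43 TPM, while Chat was over it, at 1.41 and 1.17 TPM. The largest shares of that Chat value fell on short transcripts that held no expected count in either library.

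All 9 factors of the ventral midbrain domains were detected. Their median was 4.26 TPM, and their levels summed to 61.7 TPM in replicate 1 and 58.7 TPM in replicate 2. They did not move one way, with 3 higher in replicate 1 and 3 higher in replicate 2. Foxa2, the floor plate factor, had 5.09 TPM in replicate 1 and 11.0 TPM in replicate 2 and was past 2-fold, at a log2 ratio of -1.05. Nkx2-9 was lowest, at a mean of 1.24 TPM. The 8 genes of acetylcholine breakdown and choline supply were mostly at higher levels than the 3 acetylcholine genes. Of these, 7 were detected, the median was 9.03 TPM, and none of the 7 compared passed 2-fold. Slc44a2, a choline transporter of many cell types, was highest at 56.3 TPM, and Colq, the collagen tail of acetylcholinesterase, was lowest at 0.045 TPM.

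Isl1, Isl2 and Phox2a are not particular to midbrain motor neurons. Isl1 is expressed in sensory ganglia, hypothalamus, subpallium and retina as well, and Phox2a in noradrenergic neurons, so markers of those cells are given beside them. Of 11 hypothalamus and subpallium markers, 9 were detected, with summed levels of 142 TPM in replicate 1 and 127 TPM in replicate 2. Ebf1 alone held 68.3 TPM and 70.3 TPM of these sums, which therefore rest largely on it. Of the 10 compared, 6 were higher in replicate 1 and 1 in replicate 2, with a median log2 ratio of 0.38. Nkx2-1, a factor of the hypothalamus and ventral telencephalon, had 7.09 and 4.07 TPM (ratio 0.79). Lhx8, a subpallial LIM factor, had 0.91 and 0.39 TPM and passed 2-fold at 1.42, as 1.78% of all genes compared did in that direction. Ebf1 was highest at 69.3 TPM and Six6, an eye and hypothalamus factor, lowest at 0.055 TPM. Rax, a hypothalamus and eye factor, went the other way with 1.45 and 2.37 TPM (ratio -0.67), and the other 3 compared, Ebf1 among them, were within counting error. Under TMM scaling the 6 markers higher in replicate 1 shared the direction of Isl1, and their part in its ratio was not tested. With ERCC totals, which lowered every log2 ratio by 0.27, only Nkx2-1 and Lhx8 of the 6 stayed higher in replicate 1 beyond counting error.

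Of 10 cranial sensory ganglion markers, 8 were detected, with summed levels of 142 TPM in replicate 1 and 144 TPM in replicate 2. Pou4f1, which tectum and red nucleus also express, was highest and alone held 86.0 TPM and 78.1 TPM of these sums. Scn10a, a sodium channel of nociceptors, was at 0 counts in both libraries, which allows up to 0.0371 TPM in replicate 1. Of the 9 compared, 6 were higher in replicate 2 and 1 in replicate 1, with a median ratio of -0.37. Sox10, a neural crest and glial factor, passed 2-fold with 0.37 and 0.91 TPM (ratio -1.27). By TMM, Pou4f1 was the 1 marker higher in replicate 1, a direction that reversed with ERCC totals. The other 2 compared were within counting error. The 6 markers higher in replicate 2 shared the direction of Isl2 and had the reverse direction of Isl1. Their part in either ratio was not tested. Of 4 retina genes, 1 was detected: Pou4f2 had a mean of 3.00 TPM, beside 0.86 TPM for Atoh7 and 0.59 TPM for Crx, and none of the 4 differed between the libraries beyond counting error. They summed to 5.27 TPM in replicate 1 and 4.99 TPM in replicate 2.

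Of 5 noradrenergic genes, Th had 12.4 TPM in replicate 1 and 22.3 TPM in replicate 2 (ratio -0.82), and Slc18a2, the vesicular monoamine transporter, had 11.2 and 14.8 TPM (ratio -0.37). Midbrain dopamine neurons express both as well. The genes closer to noradrenergic identity were under the limit in both libraries: Dbh, which makes noradrenaline, had 0.07 and 0.12 TPM, and its transporter Slc6a2 had 0.13 and 0.14 TPM. The 5 genes summed to 24.2 TPM in replicate 1 and 38.2 TPM in replicate 2. Of the 4 compared, 3 were higher in replicate 2, the median being -0.60. Their part in the values of Phox2a was not tested. Of 7 hindbrain genes, 1 was detected, and Hoxb1 was lowest at 0.025 TPM. Summed, they reached 7.15 TPM in replicate 1 and 7.43 TPM in replicate 2.

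Nkx6-2 is also a factor of maturing oligodendrocytes, so that lineage was read beside it. Of 6 genes, 5 were detected, summing to 47.0 TPM in replicate 1 and 48.5 TPM in replicate 2, and they did not move with Nkx6-2 as a group. Olig1 (3.89 and 1.85 TPM, ratio 1.10, past 2-fold) and Olig2 (8.61 and 4.64 TPM, ratio 0.92), factors that motor neuron progenitors share, were higher in replicate 1. Pdgfra, a receptor of oligodendrocyte precursors and mesenchyme, was higher in replicate 2 (12 and 18.2 TPM, ratio -0.53), as was Sox10. The myelin gene Mbp (15.9 and 15.6 TPM) did not differ beyond counting error, and its transcripts were not told apart here. Sox10 was under the limit of detection in both libraries, at 0.37 and 0.91 TPM. Levels in whole tissue do not show whether cells of this lineage were present. The 4 muscle factors Myf5, Myod1, Myog and Myf6 were at 0.015, 0.040, 0.160 and 0 TPM on average, and none was detected. They summed to 0.29 TPM in replicate 1 and 0.14 TPM in replicate 2, and the count of 0 for Myf6 allows up to 0.138 TPM in replicate 1.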

How the data were processed

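The authors deposited gene and transcript tables for 2 annotations of mm10, M21 (used here) and M4. Per the file headers they hold expected counts, TPM, FPKM, the percent of a gene's TPM per transcript, and posterior means with credible bounds. The deposited TPM is scaled over all rows, spike-ins included. The aligner, quantification tool and strand setting are not given in the sources used here. Rows naming no gene held 4.02% of counts in replicate 1 and 3.38% in replicate 2 and were left out. Expected counts were rounded and scaled by TMM (edgeR 4.0.16, R 4.3.3). Ratios needed 10 counts in a library, and each has an exact conditional binomial (Clopper-Pearson) 95% interval. Reads carry no molecular identifiers, so intervals cover counting error only, and so do the limits set by a count of 0 (3 counts). The ratio calculation was also run on simulated Poisson counts with known library sizes and no random variation between pools, which checks the arithmetic only. Sequences came from RefSeq (GRCm38.p6 promoters, all 8 genes matched) and GENCODE M21 transcripts.

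The 8 genes and the 11 related lists were chosen with earlier results of these data known. Named are all 8 genes, the highest and lowest gene of each list, all genes of lists of up to 6, and those past 2-fold, apart from 5 list genes whose values are not reported here. Nkx2-1 and Rax, whose values are also printed, were chosen after they were seen. The gene listed as Drgx stands as Prrxl1 in M21. Likeness of pattern was not computed, since any pair of genes correlates fully over 2 libraries. Alternatives were the M4 tables, FPKM, other limits, scalings and pseudocounts, each library alone, and, chosen after seeing the data, posterior means and coding transcripts only.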

Additional observations from a re-analysis of the deposited data

How the results depend on the processing

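Detection of 5 of the 8 genes held within 1 gene under limits of 0.5 TPM, the M4 tables, FPKM, coding transcripts only and posterior means, and ranged from 5 to 6 with each library alone. At a limit of 5 TPM, 2 genes were detected (Isl1 and Nkx6-2). The count past 2-fold was 1. It was 2 over coding transcripts only, where Slc5a7 joined Slc18a3, and 0 on log2(TPM + 0.1) and 0 on log2(TPM + 1), since a pseudocount shrinks ratios of low values. Scaling by ERCC totals lowered every log2 ratio by 0.27 relative to TMM, which put Isl1 at 0.53. The counts of genes higher in either replicate on the related lists are given under TMM and depend on this choice. Of the single-gene ratios of the 8 genes under alternatives, 55 moved by less than their counting error and 5 by more. None changed sign except that of Phox2a, which lay within counting error and became 0.03 and 0.01 with the pseudocounts of 0.1 and 1. Depth limits Chat, with 4 and 8 counts, and Phox2a, with 7 and 10. No paired analysis was possible because there is 1 group.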
